A study of Mus musculus with 4 samples.

Results

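Melanoma cells formed a small part of the cells sorted as podoplanin-high fibroblasts from intraperitoneal B16-F1-OVA tumors. They were picked out by their transcripts. A cell counted as a melanoma cell when at least 3 of *Pax3*, *Mlana*, *Pmel*, *Dct*, *Tyrp1* and *Sox10* were detected with 10 or more transcripts in sum, when no *Ptprc* transcript was found, and when the 6 collagen genes *Col1a1*, *Col1a2*, *Col3a1*, *Col5a1*, *Col5a2* and *Col6a1* made up under 1% of the cell's transcripts. A transcript is counted here as 1 UMI, a unique molecular identifier that marks 1 captured molecule. Of 24489 barcodes, 22691 had 500 to 6000 genes and at most 10% of UMIs from mitochondrial genes and were kept, and 588 of these were melanoma cells. The kept cells that missed the marker minimum and lacked *Ptprc* are called other stromal cells, and there were 21642 of them.

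Melanocytes and melanoma cells descend from the neural crest. Their pigment, melanin, is made by the enzymes TYR, TYRP1 and DCT inside melanosomes, organelles built on fibrils of the PMEL protein, and the transcription factor MITF, working with SOX10 and PAX3, drives most genes of this program. B16 is a pigmented mouse melanoma line that is known for low MHC class I, which interferon raises, and B16-F1-OVA is a B16-F1 derivative that carries ovalbumin as a model antigen.

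The hosts were C57Bl/6 mice with 2 alleles, a *Cxcl13*-cre-tdTomato transgene and the R26R-eGFPflox reporter, which all groups shared. In these mice tdTomato marks cells in which the *Cxcl13* promoter is active, and eGFP marks cells, and their descendants, in which the Cre recombinase under that promoter has acted. Each mouse received 400000 tumor cells in 200 uL, and tumors were taken on day 14. Cells negative for CD45 and CD31 and high for podoplanin (PDPN) were sorted into tdTomatoneg eGFP+, tdTomato+ eGFPneg, tdTomato+ eGFP+ and tdTomatoneg eGFPneg populations, and each gave 1 10x Genomics 3′ library, so no test across samples was possible. Values for the 4 libraries are given in this order throughout. The number of animals behind a library is not given in the sources used here, the tumor line is a single model, and all libraries are labelled as fibroblasts. The reporters and ovalbumin have no entry in the gene list of the files.

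The promoters of pigment genes were searched for the sequence through which MITF is known to act, an E-box with the letters CATGTG or CACGTG. RefSeq promoters on GRCm38.p6, from 250 bases before to 50 bases after the start of a gene, were found for 23 of the 31 marker and melanosome genes listed here. CATGTG, read on both strands (CACATG on the reverse), was in 9 of these 23 (39.1%) and in 14.1% of all 27025 promoters, and CACGTG, which does not overlap it, was in 6 of 23 (26.1%) and in 7.24% of all. The CATGTG genes were *Dct*, *Hps1*, *Mc1r*, *Oca2*, *Slc24a5*, *Slc7a11*, *Trpm1*, *Tyr* and *Tyrp1*, and the CACGTG genes were *Atp7a*, *Hps1*, *Hps3*, *Hps5*, *Mlph* and *Slc24a4*. A match describes the letters in this window and is not evidence of binding. Neither motif was in the promoters of other pigment genes, such as *Gpnmb* and *Rab27a*. The 5 promoters below were picked from those with CATGTG. They belong to genes at the center of the results, and the capitals mark CATGTG or its reverse. The motif begins 21 bases before the start in *Tyr* (chr7:87493463-87493762, minus strand), 46 in *Tyrp1* (chr4:80833963-80834262, plus strand), 141 in *Trpm1* (chr7:64153585-64153884, plus strand), 232 and 150 in *Dct* (chr14:118052197-118052496, minus strand) and 13 in *Slc24a5* (chr2:125067877-125068176, plus strand).
Tyr: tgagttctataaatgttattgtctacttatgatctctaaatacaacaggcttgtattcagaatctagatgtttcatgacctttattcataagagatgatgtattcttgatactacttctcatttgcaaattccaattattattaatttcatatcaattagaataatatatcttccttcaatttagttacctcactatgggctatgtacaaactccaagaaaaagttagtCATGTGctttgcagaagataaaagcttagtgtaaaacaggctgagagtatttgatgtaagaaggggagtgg
Tyrp1: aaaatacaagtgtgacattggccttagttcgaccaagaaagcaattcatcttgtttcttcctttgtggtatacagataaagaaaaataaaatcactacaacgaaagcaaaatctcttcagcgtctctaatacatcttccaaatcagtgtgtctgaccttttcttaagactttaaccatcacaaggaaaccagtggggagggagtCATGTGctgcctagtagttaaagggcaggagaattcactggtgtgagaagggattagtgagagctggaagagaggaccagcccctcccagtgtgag
Trpm1: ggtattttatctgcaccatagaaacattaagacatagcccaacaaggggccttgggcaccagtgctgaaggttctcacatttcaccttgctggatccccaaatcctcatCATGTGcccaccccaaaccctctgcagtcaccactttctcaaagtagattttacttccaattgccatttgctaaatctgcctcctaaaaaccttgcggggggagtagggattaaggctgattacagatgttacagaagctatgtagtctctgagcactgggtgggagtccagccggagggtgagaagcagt
Dct: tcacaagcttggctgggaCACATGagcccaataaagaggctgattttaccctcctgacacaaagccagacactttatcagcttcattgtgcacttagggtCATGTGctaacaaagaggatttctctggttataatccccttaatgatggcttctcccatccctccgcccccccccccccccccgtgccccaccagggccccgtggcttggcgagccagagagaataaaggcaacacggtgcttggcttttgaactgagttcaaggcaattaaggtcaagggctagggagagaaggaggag
Slc24a5: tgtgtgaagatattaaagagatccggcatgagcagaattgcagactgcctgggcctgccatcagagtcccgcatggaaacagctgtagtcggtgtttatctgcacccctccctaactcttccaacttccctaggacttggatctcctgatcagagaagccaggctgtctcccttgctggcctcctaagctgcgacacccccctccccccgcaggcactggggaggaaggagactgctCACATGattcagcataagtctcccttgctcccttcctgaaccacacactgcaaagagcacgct

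Some measurements touch all results below. The libraries held 63310850, 52046896, 10071954 and 90259852 UMIs. The melanoma cells held 2010232, 1217993, 311173 and 7232051 of them, so the tdTomato+ eGFP+ library, with 18 melanoma cells, gives the widest intervals. A melanoma cell had a median of 17880 UMIs and 3747 genes, against 7221 UMIs and 2371 genes in other stromal cells. After thinning to 2000 UMIs per cell the median was 992 genes in 570 melanoma cells and 1029 in 18846 stromal cells. Mitochondrial genes took 2.70%, 3.69%, 1.84% and 1.80% of melanoma UMIs and 0.496%, 1.10%, 0.529% and 0.924% of stromal UMIs, so they were higher in melanoma cells in every library. Barcode sequences shared between libraries numbered 57, and 0 of them were on a melanoma cell. Doublets were not removed. The Scrublet score, which compares cells with simulated doublets, called 6 cells of the tdTomato+ eGFP+ library, 1 of them a melanoma cell, and 0 in the other libraries, so its threshold did not work here and removal of the expected share served as an alternative.

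The melanoma label was checked against markers of other cell types. The 6 naming genes were far above the other stromal cells, as the choice of cells requires, and *Tyr*, *Trpm1* and *Slc45a2*, which were not used to choose them, were as well. Levels are given in CPM, the UMIs of a gene per 1000000 UMIs of the class. Of 8 endothelial markers *Cdh5*, *Cldn5*, *Emcn* and *Tie1* were at 0 UMIs, *Flt1* was lower and *Egfl7* higher than in stromal cells, at 24.5 against 3.56 CPM, and the list was at 42.9%, 42.7%, 21.7% and 98.8% of the stromal level in the 4 libraries. Of 10 Schwann cell markers *Mag* and *Cldn19* were at 0, *Egr2* and *Pmp22* were lower and *Mbp*, a myelin protein, was higher at 99.6 against 22.5 CPM, and the list was at 88.4%, 98.7%, 122% and 78.4%. The 16 immune markers other than *Ptprc* summed to 91.0, 14.0, 9.64 and 66.5 CPM in melanoma cells and 79.1, 160.0, 127 and 138 CPM in stromal cells, so they were above the stromal level in the tdTomatoneg eGFP+ library and below it in the others. The part of other cells in these values was not tested. Fibroblast markers did not vanish. The 16 fibroblast genes outside the rule summed to 1015 CPM in melanoma cells and 9176 CPM in stromal cells, and 12 mesothelial genes to 201 and 1251 CPM. These stromal UMIs were unevenly spread over the melanoma cells. The 165 melanoma cells (28.1%) with collagens at 0.1% of UMIs or more held 71.6% of the fibroblast-marker UMIs, at 2564 CPM, and the 423 cells with collagens under 0.1% had 403 CPM. Such collagen-carrying cells made up 18.6%, 14.5%, 11.1% and 33.7% of the melanoma cells in the 4 libraries, the most in the tdTomatoneg eGFPneg library. This split was chosen after the data were seen. The part of doublets and free RNA in these values was not tested. Some of the results that involve stromal genes are given for the 423 cells too, and the others include the collagen-carrying cells.

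Melanoma cells made up 1.88% of kept cells in the tdTomatoneg eGFP+ library (113 of 6006, 95% Clopper-Pearson interval 1.55% to 2.26%), 1.25% in the tdTomato+ eGFPneg library (62 of 4952, 0.961% to 1.60%), 1.96% in the tdTomato+ eGFP+ library (18 of 920, 1.16% to 3.08%) and 3.65% in the tdTomatoneg eGFPneg library (395 of 10813, 3.31% to 4.02%). Under this rule the share in the tdTomatoneg eGFPneg library was above all others beyond counting error, which is the only error these intervals cover. The sort gates set which cells enter a library. Melanoma cells were also found behind the reporter gates, 80 of the 588 in the tdTomato+ gates (13.6%) and 131 in the eGFP+ gates (22.3%). These percentages follow how many cells of each gate were sequenced, and they are not rates of reporter signal among melanoma cells. The reporter alleles belong to the host mice, whereas the melanoma cells descend from the injected line. Why such cells lay in these gates was not tested. With collagens under 0.1% the shares were 1.53%, 1.07%, 1.74% and 2.42% in the 4 libraries. The tdTomato+ eGFP+ value then rested on 16 of 920 cells, and the statement on counting error is not made for these shares.

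**Figure D1:**
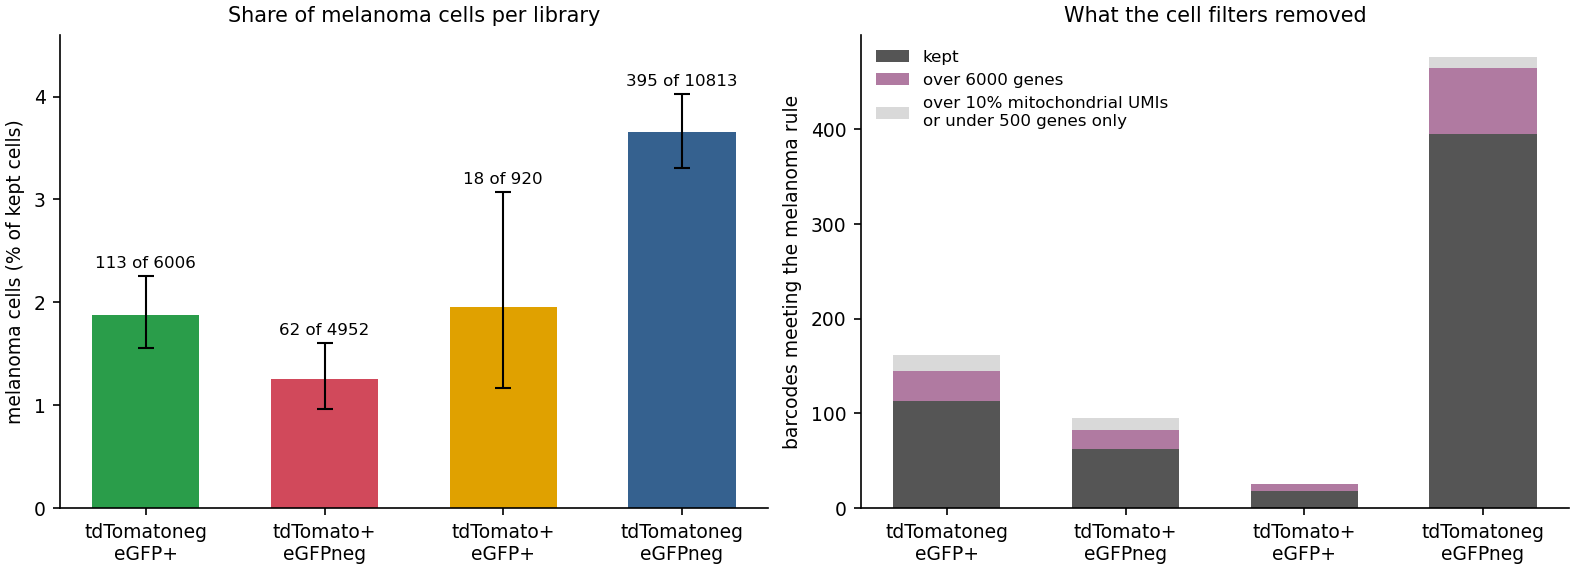
Left, melanoma cells as a percentage of kept cells in each library, with 95% Clopper-Pearson intervals for counting error; the tdTomatoneg eGFPneg library is highest at 3.65%. Right, all barcodes that met the melanoma rule per library, stacked by whether they were kept (588 in all), had over 6000 genes (130) or failed another filter.

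The upper limit of 6000 genes removed a larger share of melanoma barcodes than of stromal barcodes. Before the filters 758 barcodes met the melanoma rule and 170 of them were not kept. The gene limit removed 17.2% of them and 0.509% of stromal barcodes. Of the 293 barcodes over the limit, 130 (44.4%, 38.6% to 50.3%) met the melanoma rule, 32, 21, 7 and 70 in the 4 libraries, and 118 were stromal. Cells that were removed differed from those kept. The G2 and M phase list stood at 2731 CPM over the limit and 1607 CPM in kept cells, the S phase list at 1426 and 1002 CPM, glycolysis at 10767 and 17094 CPM and hypoxia at 1063 and 1564 CPM, while melanin and melanosome genes stood at 5525 and 6109 CPM. The rule's collagens were also higher over the limit, at 2604 against 1319 CPM. Of the 758 barcodes, 33 had over 10% mitochondrial UMIs and 9 had under 500 genes, and some failed more than 1 limit.

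Few cells lay near the limits of the rule. Melanoma cells carried 10 to 922 UMIs of the 6 markers, with a median of 211, and 19 had 10 to 20. Another 18 cells with 3 markers had 3 to 9 UMIs and stayed outside. The collagen share of melanoma cells had a median of 0.0385% and a maximum of 0.956%, 12 cells had 0.8% to under 1%, and 33 cells that met the marker minimum were left out at 1% or more, of which 12 had under 1.2%.

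Levels were compared with the other stromal cells of the same libraries. Since the cells were chosen by genes of this same comparison, it is a description of the melanoma cells and carries no test. UMIs were summed over cells and scaled to a total of 1000000, and a gene is written as higher or lower when the ratio of these levels was at least 2-fold and went the same way in every library with 20 or more melanoma cells. Of 9966 genes with a mean of at least 5 CPM, 1447 were higher (14.5%) and 2247 lower (22.5%), and the median log2 ratio was -0.02. The counts of list members given below stand against these 2 shares. Intervals are 95% and cover counting error only.

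The naming genes give the scale of the difference. *Dct*, the dopachrome tautomerase, was at 5382, 4861, 5129 and 5718 CPM in melanoma cells of the 4 libraries, and *Pmel*, the fibril protein, at 3899, 3716, 3487 and 3072 CPM. *Mlana*, a melanosome protein that T cells recognize, was at 2462, 2561, 3827 and 3601 CPM. *Tyrp1* ranged from 598 to 1240 CPM, *Pax3* from 135 to 225 CPM and *Sox10* from 79.2 to 131 CPM. In other stromal cells they were at 8.36 (*Dct*), 5.50 (*Pmel*), 6.71 (*Mlana*), 1.78 (*Tyrp1*), 0.226 (*Pax3*) and 0.242 CPM (*Sox10*). All 6 were highest among stromal cells in the tdTomatoneg eGFPneg library, which also held the largest share of melanoma cells, and the part of free RNA in this was not tested.

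Genes of melanin synthesis and the melanosome were mostly far higher in melanoma cells. Of 22 measured, 17 were higher and 1 lower, against 14.5% and 22.5% of all genes, with a median log2 ratio of 5.35. *Tyr*, the rate-limiting enzyme of melanin synthesis, was at 470, 646, 398 and 310 CPM in the 4 libraries and at 0.523 CPM in stromal cells (log2 9.51, 9.22 to 9.81). It was highest in the tdTomato+ eGFPneg library and lowest in the tdTomatoneg eGFPneg library. *Trpm1*, a cation channel named for its loss in melanoma metastasis, was at 422, 491, 386 and 359 CPM (log2 8.83). The transporters that set melanosome content were higher too, with *Slc45a2* at 443, 429, 283 and 275 CPM (log2 8.76), *Slc24a5* at 753, 781, 771 and 626 CPM (6.07) and *Oca2* at 86.1, 133, 51.4 and 50.5 CPM (7.76). In every library the melanoma level of each of these 3 transporters was above the stromal level.

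The melanosome receptor *Gpr143*, at 47.8 CPM against 0.124 CPM, had a log2 ratio of 8.59. *Gpnmb*, a melanosome glycoprotein, was at 613 against 3.30 CPM (7.54). The GTPase *Rab38*, which brings enzymes to the melanosome, was at 353 against 3.20 CPM (6.78). The melanosome transport machinery followed with smaller ratios, *Rab27a* at 42.1 against 0.997 CPM (5.40), its partner *Mlph* at 40.4 against 1.02 CPM (5.30) and the motor *Myo5a* at 124 against 31.6 CPM (1.98). *Mc1r*, the melanocortin receptor that turns on pigment synthesis, was at 29.8, 24.6, 12.9 and 16.6 CPM (6.32). *Rab32*, which shares tasks with *Rab38*, was the exception and was lower, at 20.6 against 60.9 CPM (-1.56). *Cd63*, a tetraspanin of many organelles, stood at 2637 against 1432 CPM, and *Hps1*, *Hps5* and *Ap3b1*, which serve lysosomes in many cells, were within 2-fold as well.

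**Figure D2:**
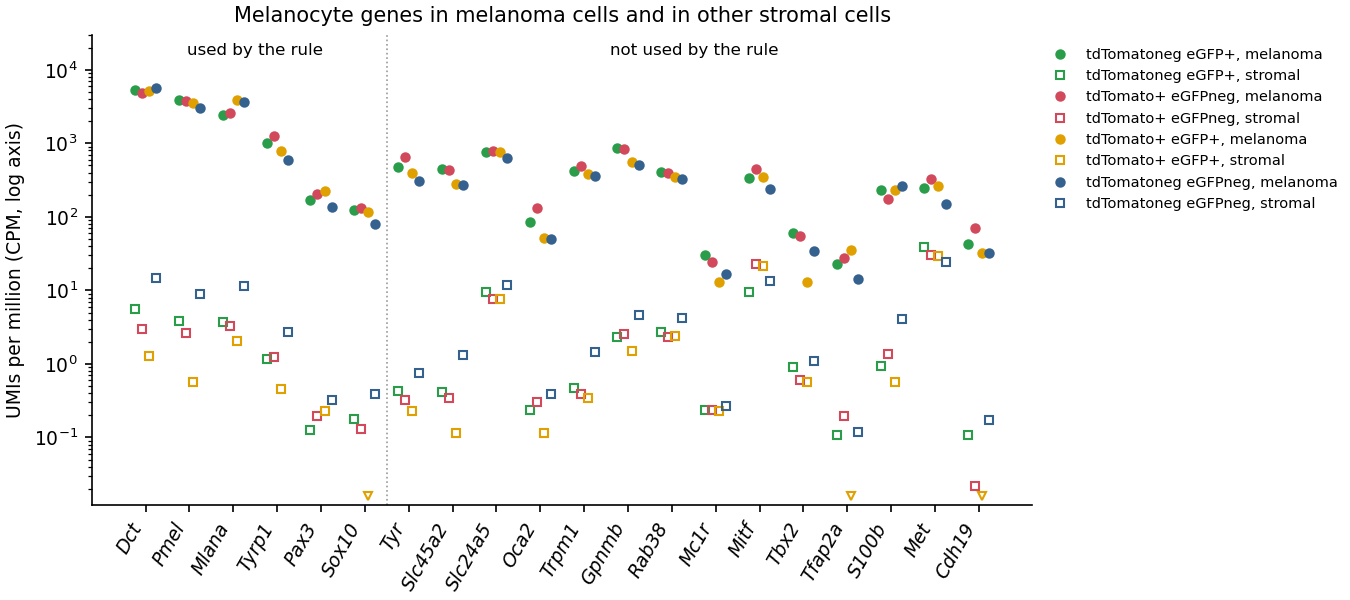
Level of melanocyte genes (CPM, log axis) in melanoma cells (filled circles) and other stromal cells (open squares), colored by library; triangles at the lower edge stand for 0 UMIs. Left of the line are the 6 genes that chose the cells, right of it genes that did not, and in each library the melanoma value lies above the stromal value, with *Tyr* at 310 to 646 CPM.

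Among transcription factors of melanocytes and the neural crest, 3 of 8 measured were higher and 4 lower. *Mitf*, the master regulator of the lineage, was at 338, 454, 354 and 241 CPM against 15.0 CPM in stromal cells (log2 4.26, 4.18 to 4.33). The T-box factor *Tbx2*, at 40.5 against 0.889 CPM (5.51), and *Tfap2a*, a partner of MITF at pigment genes, at 17.9 against 0.129 CPM (7.11), were higher as well. The lower genes were *Sox5* (25.3 against 202 CPM), *Sox9* (3.99 against 45.7 CPM), *Zeb1* (5.66 against 52.6 CPM) and *Msx1* (1.86 against 9.89 CPM). *Zeb1* is a factor of mesenchymal states, and its counterpart in melanocytes, *Zeb2*, stood at 143 against 271 CPM (-0.93). *Foxd3*, *Lef1*, *Tfap2b* and *Tfap2c* had 0 UMIs in melanoma cells, which allows up to 0.342 CPM.

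Receptors and surface molecules of the lineage were split. *Met*, the receptor of hepatocyte growth factor, was at 247, 325, 260 and 151 CPM against 30.2 CPM (log2 2.67). *S100b*, a calcium-binding marker of melanoma, was at 229, 177, 235 and 265 CPM against 2.31 CPM (6.75), and *Cdh19*, a cadherin of neural crest cells, at 42.3, 71.4, 32.1 and 32.4 CPM against 0.108 CPM (8.49). *Erbb3*, a neuregulin receptor, was higher at 11.8 against 0.722 CPM. *Axl*, *Egfr*, *Cdh2* and *Cdh3* were lower. *Axl* was at 24.0 against 111 CPM and *Egfr* at 8.73 against 136 CPM. Receptors on which melanoblasts depend had almost no UMIs. *Kit* had 0 UMIs and *Ednrb* 1 UMI among the 10771449 of the melanoma cells, and *Ngfr*, a neural crest stem cell marker, had 0.

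The ligands of these receptors and the feedback genes of the MAPK pathway counted 0 higher and 8 lower of 11 measured. *Kitl*, the KIT ligand, was at 3.90 against 76.6 CPM in stromal cells (log2 -4.30) and *Edn1*, an endothelin, at 1.86 against 8.84 CPM. *Edn3* had 0 UMIs in melanoma cells. The ERK phosphatases *Dusp4* and *Dusp6* stood at 54.4 against 30.7 CPM and 36.7 against 54.4 CPM, within 2-fold, while the pathway inhibitors *Spry2* (14.7 against 47.9 CPM) and *Spred1* (34.8 against 90.6 CPM) and the ETS factors *Etv4* and *Etv5* were lower. *Hgf*, the MET ligand, was at 0.650 CPM in melanoma cells and 10.0 CPM in stromal cells. Thus *Met* was higher in melanoma cells and its ligand in stromal cells.

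In the list of growth control genes 2 of 17 were higher, 5 lower and 10 uncalled, which is near the 14.5% and 22.5% of all genes. *Cdkn2a*, the locus of the p16 and p19ARF tumor suppressors that B16 cells are known to lack, was at 0.497, 0.821, 9.64 and 1.24 CPM against 29.4 CPM in stromal cells (log2 -4.50, -5.37 to -3.75). In the 423 cells with collagens under 0.1% it was at 0.130 CPM and in the other 165 at 4.26 CPM. *Cdkn2b* next to it was at 0.557 against 17.1 CPM. The cyclin *Ccnd2* was higher at 381, 376, 212 and 233 CPM against 65.0 CPM (2.09), and the inhibitor *Cdkn1b* at 100 against 25.5 CPM (1.97). *Cdk6*, *Myc* and *Nras* were lower, *Myc* at 12.3 against 37.3 CPM. *Braf*, *Rb1* and *Trp53* stood at 39.7, 10.0 and 55.5 CPM, each within 2-fold of stromal cells.

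The 15 genes with the largest ratios and a level of at least 50 CPM extended this pattern beyond pigment. *Ppargc1a*, a coactivator of mitochondrial genes that MITF is known to drive in melanoma, led with 396, 520, 215 and 249 CPM against 0.410 CPM (log2 9.54, 9.22 to 9.89). It was found in 34.6% of melanoma cells and 0.122% of stromal cells thinned to 2000 UMIs. *Ptgds*, the lipocalin-type prostaglandin D synthase, was at 6125, 5590, 6511 and 5922 CPM against 12.4 CPM (8.90). *Syt4*, a synaptotagmin of vesicle fusion, was at 414 CPM (9.32), *Car14*, a carbonic anhydrase, at 130 CPM (8.77), *Tspan10*, a tetraspanin, at 208 CPM (9.35) and *Cited1*, a transcriptional coactivator, at 1089 CPM (8.40). *Ankfn1* (217 CPM, 9.44) and *Arfgef3* (92.7 CPM, 8.86) also belonged to this group, as did *Tyr*, *Trpm1* and *Slc45a2*. The glutathione transferases *Gsta1*, *Gm3776*, *Gsta2* and *Gsta5* were at 187, 173, 163 and 71.7 CPM with log2 ratios of 8.65 to 9.30. They are near-identical copies, so how the UMIs divide among them is uncertain.

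The 10 genes with the largest ratios toward stromal cells were *Igkc*, *Ighm*, *Slit2*, *Inhba*, *Cyp7b1*, *Spon1*, *Col24a1*, *Chl1*, *Ch25h* and *Cxcl13*. *Inhba*, a subunit of activin, was at 2.97 against 90.7 CPM (log2 -4.93). *Cyp7b1* and *Ch25h*, enzymes of oxysterols that guide B cells, were at 4.73 against 140 CPM and 2.51 against 63.9 CPM, and the adhesion molecule *Chl1* at 20.0 against 511 CPM. *Igkc* rests on few cells, since 39 cells of the stromal class, each with 50 or more, held 98.1% of the stromal *Igkc* UMIs. The spread of *Ighm* is not given. The stromal class is set only by missing the marker minimum and lacking *Ptprc* UMIs, and what kind of cells these 39 are was not tested.

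As a list, G2 and M phase genes were near the level of stromal cells and S phase genes were above it. Of 20 S phase genes 3 were higher and 0 lower, with the list at 141% of the stromal level, and of 20 G2 and M phase genes 1 was higher and 0 lower, with the list at 108%. The S phase count is near the 14.5% of all genes that were higher, and the 0 lower genes stand against 22.5% of all genes. By library the S phase list was at 115%, 180%, 159% and 148% of the stromal level. *Rrm2*, a subunit of ribonucleotide reductase, was at 74.1, 92.0, 138 and 114 CPM against 39.5 CPM (log2 1.41), and the replication helicase *Mcm2* and the kinase *Bub1* were higher too, at 38.1 against 13.4 CPM and 49.9 against 22.5 CPM. *Mki67*, the proliferation marker, stood at 62.4 against 83.2 CPM. After thinning to 2000 UMIs it was found in 9.65% of melanoma cells (7.35% to 12.4%) and 10.6% of stromal cells (10.1% to 11.0%), and *Top2a*, a topoisomerase of dividing cells, in 15.4% and 17.1%. Unthinned shares, which follow depth, were 30.1% and 23.7% for *Mki67*. The G2 and M phase list ran from 68.6% of the stromal level in the tdTomatoneg eGFP+ library to 122% in the tdTomatoneg eGFPneg library. The cells removed by the gene limit, which were richer in these genes, are not in these values.

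Glycolysis genes were higher as a list, at 281%, 265%, 306% and 290% of the stromal level in the 4 libraries, while hypoxia genes were not. Of 12 glycolysis genes 5 were higher and 1 lower. *Gapdh* was at 8148, 6154, 7809 and 8163 CPM against 1897 CPM (log2 2.06) and *Pgk1* at 2571, 2211, 2413 and 1988 CPM against 493 CPM (2.11). *Tpi1*, *Pgam1* and *Eno1* were the other 3, and *Slc16a3*, a lactate exporter, was lower at 9.56 against 108 CPM (-3.50). Of 15 hypoxia genes 1 was higher and 6 lower, against 14.5% and 22.5% of all genes, and the list was at 97.1% of the stromal level. The higher gene was *Car9*, a carbonic anhydrase induced by HIF, at 60.7, 69.8, 54.6 and 30.1 CPM against 15.5 CPM (1.40). *Vegfa* (57.1 against 152 CPM), *Slc2a1* (33.0 against 78.0 CPM), *Adm*, *Egln3*, *Ndrg1* and *P4ha1* were lower. *Gapdh*, *Pgk1* and *Tpi1* have several pseudogenes, and how UMIs were assigned among such copies was not examined.

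Amino acid synthesis and stress genes went in both directions, with 7 higher, 2 lower and 6 uncalled of 15. The summed list was below the stromal level, at 88.3%, 91.7%, 85.0% and 74.0% of it in the 4 libraries. The 7 higher genes include known targets of ATF4. They were *Asns* at 67.4 against 16.1 CPM (log2 2.07) and *Mthfd2* at 129 against 23.6 CPM (2.45). Also higher were *Slc7a5* at 58.3 against 12.4 CPM (2.23) and *Trib3* at 12.3 against 1.80 CPM (2.77). *Chac1*, *Phgdh* and *Shmt2* were higher by log2 2.56, 1.05 and 1.07. *Atf4* itself stood at 117 against 96.0 CPM. *Xbp1*, a factor of the unfolded protein response, and *Atf3* were lower, at 44.2 against 128 CPM and 70.6 against 292 CPM, and the ER chaperone *Hspa5* stood at 650 against 1143 CPM.

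**Figure D3:**
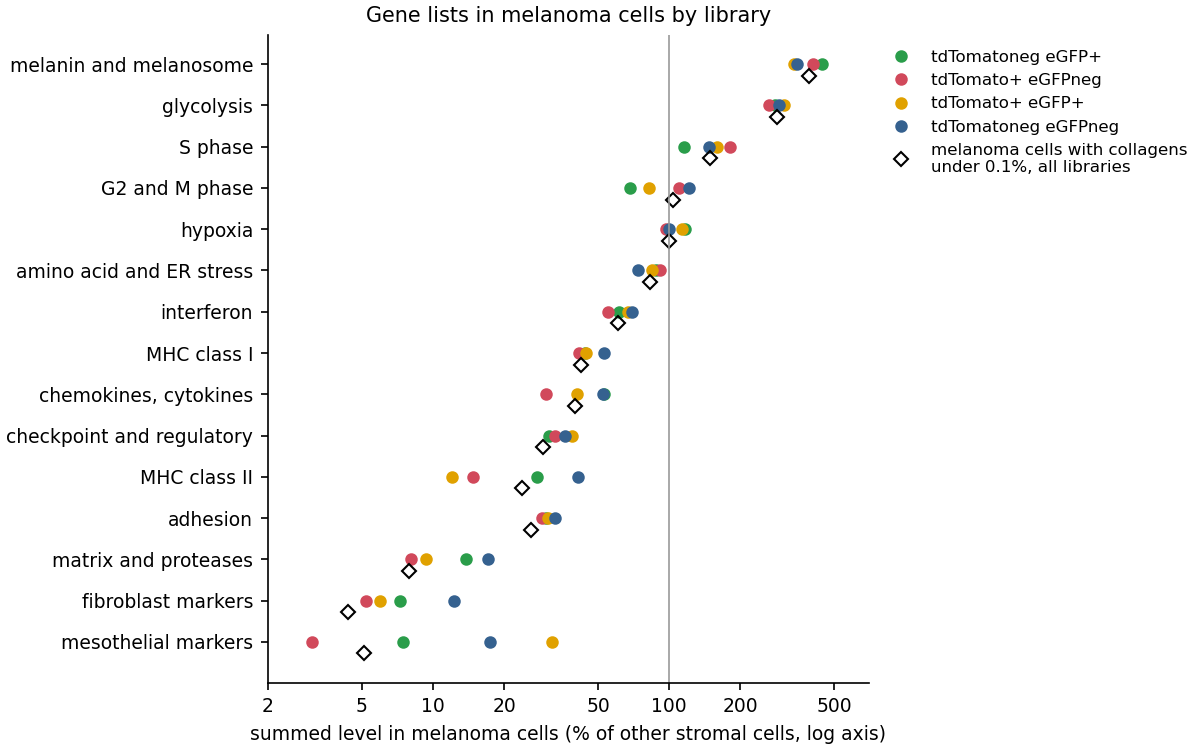
Summed level of each gene list in melanoma cells as a percentage of its level in other stromal cells of the same library (log axis), 1 circle per library, with open diamonds for the 423 melanoma cells with collagens under 0.1%. Melanin and glycolysis lists lie to the right of 100% in every library, MHC class I at 41.6% to 53.1%, and the diamonds of the matrix and fibroblast lists lie below all 4 of their circles.

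MHC class I genes were lower, and unequally so. Of 19 genes of class I and antigen processing 0 were higher and 10 lower, against 14.5% and 22.5% of all genes, and the list was at 44.1%, 41.6%, 44.4% and 53.1% of the stromal level in the 4 libraries. *H2-K1*, a classical heavy chain, was at 223, 186, 209 and 323 CPM in melanoma cells and 2530, 2706, 2102 and 1836 CPM in stromal cells (log2 -2.99, -3.04 to -2.94). *H2-D1*, the other classical heavy chain of this strain, was at 608, 582, 617 and 469 CPM against 1884 CPM (-1.88). The light chain *B2m* stood at 2221 against 3463 CPM (-0.64), within 2-fold, and after thinning it was found in 96.7% of melanoma and 98.5% of stromal cells, whereas *H2-K1* was found in 28.9% and 95.3%. The nonclassical genes *H2-Q7* and *H2-T23* were at 65.0 against 842 CPM and 23.4 against 278 CPM. Class I genes are close paralogs, and how UMIs were divided among them was not examined.

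Antigen processing was uneven as well. *Psmb8*, a subunit of the immunoproteasome, was at 105, 61.6, 80.3 and 141 CPM against 712 CPM (log2 -2.52), and the peptide transporters *Tap1* (42.4 against 127 CPM) and *Tap2* and the loading factor *Tapbp* (52.4 against 166 CPM) were lower. The other immunoproteasome subunits *Psmb9* and *Psmb10* stood at 214 against 327 CPM and 218 against 288 CPM, and the activator *Psme1* at 548 against 537 CPM. Several of the lower genes also differed with the collagen share of the melanoma cells. In the 423 cells with collagens under 0.1%, *H2-K1* was at 119 CPM and in the other 165 at 710 CPM, *H2-Q7* at 15.9 and 189 CPM, *H2-T23* at 7.25 and 64.2 CPM and *Psmb8* at 65.2 and 273 CPM. *B2m*, at 2246 and 2158 CPM, *H2-D1*, at 456 and 653 CPM, and *Psmb9*, at 196 and 260 CPM, differed less. With these 423 cells alone the class I list was at 42.5% of the stromal level.

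**Figure D4:**
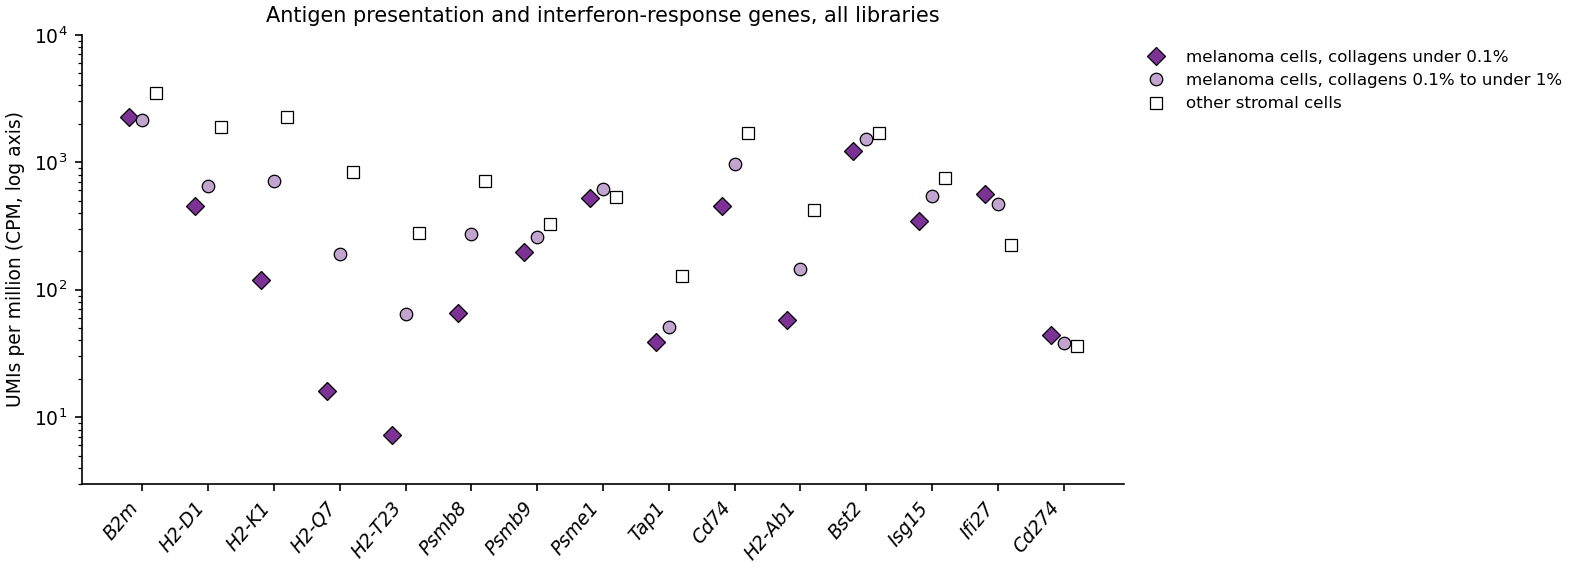
Level of antigen presentation and interferon-response genes (CPM, log axis) in melanoma cells with collagens under 0.1% (diamonds, 423 cells), in the other melanoma cells (circles, 165 cells) and in other stromal cells (squares), all libraries summed. *H2-K1* goes from 119 to 710 to 2274 CPM across the 3 groups, whereas *B2m* and *Cd274* lie close together.

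All 6 MHC class II genes measured were lower. *Cd74*, the invariant chain, was at 536, 284, 254 and 691 CPM in melanoma cells and 1702 CPM in stromal cells (log2 -1.50), and *H2-Ab1* at 91.5, 51.7, 35.4 and 87.7 CPM against 419 CPM (-2.34). The list was at 27.5%, 14.8%, 12.0% and 41.2% of the stromal level and at 23.9% in cells with collagens under 0.1%, where *Cd74* was at 457 CPM. *Ciita*, the class II transactivator, was too low to be measured by the limit used, at 2.69 against 4.66 CPM.

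Of 22 genes of the interferon pathway 1 was higher and 10 lower, against 14.5% and 22.5% of all genes, with the list at 64.3% of the stromal level. *Ifi27* was the higher one, at 601, 581, 646 and 507 CPM against 225 CPM (log2 1.25, and 1.32 in cells with collagens under 0.1%). *Bst2*, a tetherin at the cell surface, stood at 1306 against 1690 CPM and *Isg15* at 402 against 749 CPM, both within 2-fold. *Irf7*, a factor of the type I response, was lower at 29.5 against 178 CPM, as were *Gbp2* (97.9 against 499 CPM) and the receptor chain *Ifngr1* (15.8 against 42.4 CPM) and the kinases *Jak1* and *Jak2* (56.1 against 220 CPM and 17.0 against 89.6 CPM). The other receptor chain *Ifngr2* stood at 74.4 against 54.5 CPM. *Cd274*, which encodes the checkpoint ligand PD-L1, was at 61.7, 48.4, 86.8 and 34.4 CPM against 35.9 CPM (0.25) and was the only measured gene of the checkpoint and regulatory list that was not lower. The other 12 of 13 were lower, among them *Cd47*, the signal against phagocytosis (107 against 469 CPM), *Lgals1* (1895 against 5337 CPM), *Ptgs2* (7.15 against 139 CPM) and *Tgfb1* (2.41 against 20.8 CPM).

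Secreted factors were mostly lower, 20 of 25, with 1 higher. *Mif*, the macrophage migration inhibitory factor, was that gene, at 3919, 3513, 4023 and 3313 CPM against 1247 CPM (log2 1.48). *Spp1*, or osteopontin, stood at 481 against 320 CPM and *Gdf15* at 20.8 against 14.6 CPM. *Cxcl10*, a ligand of CXCR3, was lower but kept a level of 369, 218, 816 and 337 CPM against 1180 CPM (-1.78), and of 283 CPM in cells with collagens under 0.1%. *Ccl2*, at 371 against 3293 CPM, was at 81.3 CPM in these cells, and *Cxcl13*, at 30.0 against 750.0 CPM, was at 4.53 CPM. *Cxcl13* in melanoma cells was at 2.49, 69.8, 12.9 and 31.7 CPM and in stromal cells of the same libraries at 199, 2197, 1115 and 226 CPM. It was highest in both in the tdTomato+ eGFPneg library, and in cells with collagens under 0.1% there it was at 21.3 CPM.

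Adhesion and matrix genes were lower almost throughout, 11 of 14 and 19 of 21. *Vcam1* was at 36.5 against 398 CPM, *Icam1* at 7.06 against 75.2 CPM and *Fn1*, fibronectin, at 154 against 2031 CPM. *Sparc* was at 833 against 8430 CPM and *Timp1*, an inhibitor of metalloproteinases, at 565 against 4854 CPM, and in cells with collagens under 0.1% they were at 274 and 80.8 CPM. The only higher matrix gene was the lysosomal protease *Ctsd*, at 429, 425, 299 and 299 CPM against 128 CPM (log2 1.40). Among fibroblast markers 15 of 16 were lower, and *Fbln1*, a fibulin, was the exception at 101, 109, 99.6 and 88.6 CPM against 65.8, 58.8, 49.9 and 96.5 CPM, and at 98.3 CPM in cells with collagens under 0.1%. Immediate early genes such as *Fos* (214 against 1255 CPM) and *Egr1* (55.6 against 619 CPM) were lower, 9 of 11 in the dissociation list, whereas the chaperone *Hsp90aa1* was higher at 1787 against 819 CPM.

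The transcript of the sort marker was low in these cells, although the sort itself gated on high PDPN protein, which was not measured here. *Pdpn* was at 31.3, 20.5, 32.1 and 40.7 CPM in melanoma cells and 308, 319, 276 and 221 CPM in stromal cells (log2 -2.91, -3.06 to -2.77), and at 16.6 CPM in melanoma cells with collagens under 0.1%. After thinning it was found in 6.67% of melanoma cells (4.76% to 9.04%) and 38.7% of stromal cells. The sex-linked genes *Xist* (9.56 against 146 CPM), *Ddx3y* (4.08 against 29.7 CPM) and *Uty* (1.02 against 17.7 CPM) were all lower than in stromal cells, and in cells with collagens under 0.1% *Xist* was at 1.17 CPM and *Ddx3y* at 1.30 CPM.

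Melanoma cells of the 3 libraries with 50 or more of them were then compared with each other. Here a gene is written as higher or lower when levels differed at least 2-fold with the counting interval on 1 side of 0, among genes with a mean of at least 20 CPM. Each side is 1 library, so these are differences between libraries and not between reporter states. The tdTomatoneg eGFPneg cells had 72 higher (1.36%) and 38 lower genes (0.716%) of 5305 against tdTomatoneg eGFP+, and 120 higher (2.21%) and 386 lower (7.11%) of 5432 against tdTomato+ eGFPneg. The tdTomatoneg eGFP+ cells had 40 higher (0.708%) and 48 lower (0.849%) of 5652 against tdTomato+ eGFPneg. All 3 comparisons share libraries with one another.

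Stromal genes led the higher side of the tdTomatoneg eGFPneg library. *Tagln*, a contractile protein, was at 69.4 CPM there, 1.49 CPM in tdTomatoneg eGFP+ and 4.93 CPM in tdTomato+ eGFPneg cells, and *Mfap5*, a microfibril protein of fibroblasts, at 94.3, 9.45 and 6.57 CPM. *Timp1* was at 729 against 69.8 CPM in tdTomato+ eGFPneg cells (log2 3.38), with *Slpi*, *Sbsn*, *S100a6*, *Crip1*, *Mgp* and *Mt2* in the same group. Of the 120 genes higher against tdTomato+ eGFPneg, 101 were lower in melanoma than in stromal cells. With cells of collagens under 0.1% alone, 46 genes were higher against tdTomato+ eGFPneg and 43 against tdTomatoneg eGFP+. *Tagln*, at 3.56, 1.83 and 0.968 CPM in these cells of the tdTomatoneg eGFPneg, tdTomatoneg eGFP+ and tdTomato+ eGFPneg libraries, and *Mfap5*, at 29.1, 1.22 and 6.78 CPM, *Sbsn* and *Mt2* were then under the minimum level. *Timp1* had a log2 ratio of 0.78 against tdTomato+ eGFPneg and was no longer called, whereas against tdTomatoneg eGFP+ it was at 1.15 in all cells and 1.40 in these. *S100a6* (3.29), *Crip1* (3.74), *Mgp* (2.32) and *Slpi* (64.4 against 1.94 CPM, on 2 UMIs) were still higher against tdTomato+ eGFPneg.

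Metabolic genes led the lower side. *Ero1a*, a HIF-induced oxidase of the ER, was at 155 CPM in tdTomatoneg eGFPneg and 332 CPM in tdTomatoneg eGFP+ cells (log2 -1.10, and -1.24 with collagens under 0.1%). The phosphofructokinase *Pfkp* (61.1 against 139 CPM), the glucose transporter *Slc2a1* (25.3 against 51.2 CPM), *Car9* (30.1 against 60.7 CPM) and the phosphatase *Dusp4* (40.1 against 82.6 CPM) were lower as well. *Ero1a* and *Slc2a1* stood at 131 against 184 CPM and 56.9 against 84.0 CPM in stromal cells of these libraries. Against tdTomato+ eGFPneg, *Tyr* was lower at 310 against 646 CPM (-1.06) and *Vegfa* at 42.4 against 108 CPM (-1.34), with *Tanc2*, *Mdga2*, *Camk1d*, *Chsy3* and *Pde10a* among the 10 largest ratios. The melanoma cells of this library also had a median of 4512 genes per cell against 3484 in tdTomatoneg eGFPneg, and the highest mitochondrial share.

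Most of the genes that differed went the same way in stromal cells of the same libraries, though few by 2-fold. The share of all measured genes that did so is not given here, so the counts describe these genes without setting them apart from the rest. Against tdTomatoneg eGFP+ these were 57 of the 72 higher and 32 of the 38 lower genes in tdTomatoneg eGFPneg cells, 17 and 0 of them by 2-fold. Against tdTomato+ eGFPneg they were 76 of 120 and 342 of 386, 9 and 11 by 2-fold, and for tdTomatoneg eGFP+ against tdTomato+ eGFPneg 27 of 40 and 37 of 48, 0 and 5 by 2-fold. *Gm10076* had a log2 ratio between tdTomatoneg eGFPneg and tdTomatoneg eGFP+ cells of 2.28 in melanoma and 2.19 in stromal cells. *Gstp1*, at 164 against 369 CPM between tdTomatoneg eGFP+ and tdTomato+ eGFPneg, went the same way in stromal cells with 31.3 against 58.9 CPM. *Top2a* was lower in tdTomatoneg eGFP+ than in tdTomato+ eGFPneg melanoma cells, at 79.6 against 173 CPM, and stood at 186 against 174 CPM in stromal cells.

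*Cck*, which encodes the peptide hormone cholecystokinin, differed most between libraries and came from very few cells. It was at 2.49, 699.5, 0 and 75.8 CPM in the 4 libraries. Of its 1405 UMIs in melanoma cells, 99.1% were in 14 cells with 5 or more, 4 in the tdTomato+ eGFPneg and 10 in the tdTomatoneg eGFPneg library, and the highest cell had 425. These 14 cells carried the melanocyte program, with *Mitf* and *Tyr* in 14 of 14 and *Trpm1* in 13. They had 0 UMIs of *Chsy3*, a chondroitin synthase, and of the phosphodiesterase *Pde10a*, which were found in 245 and 167 of the other 574 melanoma cells, at a median of 19616 UMIs per cell against 17880. *Chsy3* and *Pde10a* were looked up in these cells after the values of *Cck* were seen.

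Single melanoma cells varied widely in each library, as 528 cells with 5000 or more UMIs show. The melanin list ran from 878 to 12687, 4442 to 17805, 1778 to 9975 and 715 to 12206 CPM per cell in the 4 libraries, glycolysis from 3865 to 53335, 4960 to 37817, 4859 to 27511 and 2560 to 52879 CPM, and hypoxia from 227 to 7890, 169 to 9542, 248 to 5244 and 153 to 11275 CPM. The G2 and M phase list began at 0 CPM in every library and reached 9256, 9553, 5275 and 7895 CPM, with medians of 267, 252, 289.9 and 773 CPM. The lowest melanin value was thus highest in the tdTomato+ eGFPneg library, which had 59 such cells. The tdTomatoneg eGFP+, tdTomato+ eGFP+ and tdTomatoneg eGFPneg libraries had 96, 15 and 358, and lowest and highest values depend on the number of cells. MHC class II genes also began at 0 CPM and reached 26258 CPM in the tdTomatoneg eGFP+ library and 2455, 1422 and 7712 CPM in the others. The hypoxia list had a higher median in tdTomatoneg eGFP+ cells (1745 CPM) than in tdTomato+ eGFPneg (991 CPM) and tdTomatoneg eGFPneg cells (908 CPM), and the ranges overlapped.

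Several lists moved together across cells. The correlations are descriptions over 96 cells of the tdTomatoneg eGFP+, 59 of the tdTomato+ eGFPneg and 358 of the tdTomatoneg eGFPneg library, and cells of a library share its preparation and differ in depth. Hypoxia and glycolysis lists had Spearman values of 0.72, 0.88 and 0.62, and MHC class I and interferon lists 0.72, 0.68 and 0.59. Pigment and division were inverse, with -0.41, -0.32 and -0.40 between the melanin and the G2 and M phase lists. *Mitf* and *Ppargc1a* had 0.44, 0.30 and 0.49, and *Mitf* and the melanin list 0.38, 0.30 and 0.32. Hypoxia and G2 and M phase lists had -0.33, -0.35 and -0.22. The lists' own relation with the cells' UMI totals was -0.22, -0.24 and -0.19 for hypoxia and 0.16, 0.22 and 0.20 for G2 and M phase. MHC class I genes and fibroblast markers had 0.37, 0.23 and 0.35, and 0.15, 0.07 and 0.14 in cells with collagens under 0.1%.

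**Figure D5:**
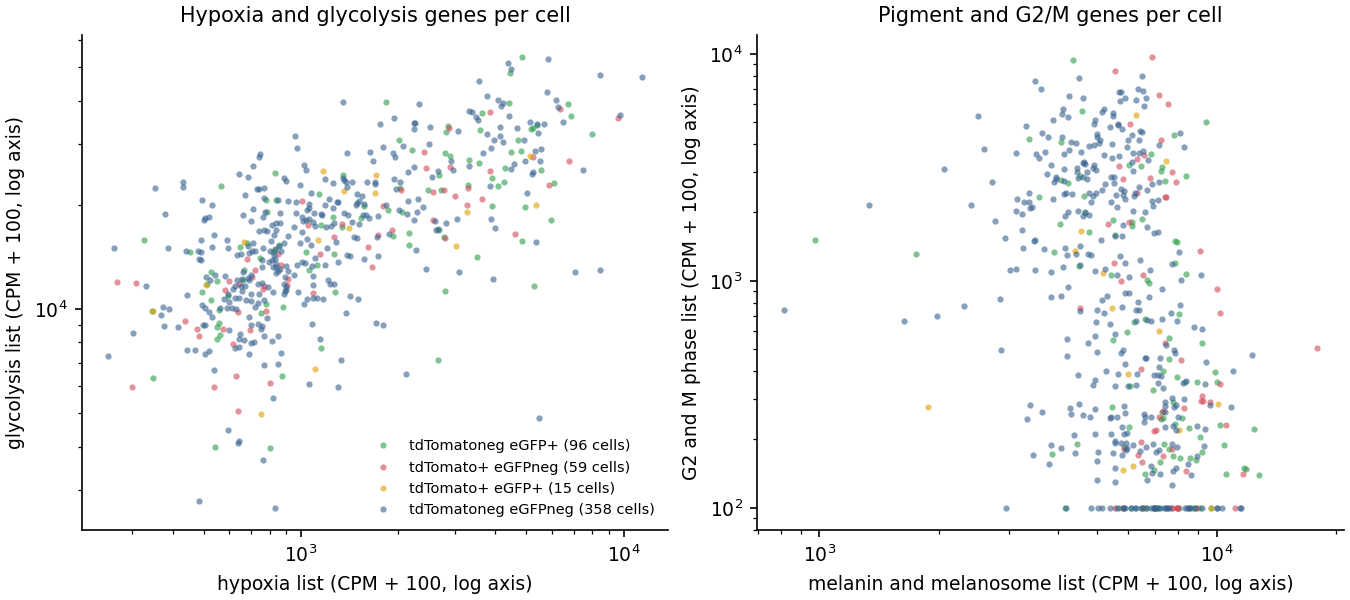
Each point is 1 melanoma cell with 5000 or more UMIs, colored by library, on log axes of CPM + 100. Left, cells with more hypoxia-list UMIs have more glycolysis-list UMIs (Spearman 0.62 to 0.88 by library); right, cells with more melanin-list UMIs have fewer G2 and M phase UMIs (-0.41 to -0.32), and the row of points at 100 are cells with 0 such UMIs.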

How the data were processed

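Cells were profiled with the 10x Genomics 3′ v3.1 kit, with 1 library for each sorted population. The authors deposited raw UMI counts per gene and barcode for 33696 genes. Per the labels they were made with Cell Ranger 10.0.0 and STAR on GRCm39 and handled in Seurat 5.0, whereas the matrix header names Cell Ranger 8.0.0. The study set melanoma and immune clusters aside.

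Here UMIs were summed over cells of a class and scaled to a total of 1000000 (CPM). Ratios carry 95% conditional binomial intervals and shares Clopper-Pearson intervals, both for counting error only. A class under 3 UMIs was set to 3 for a ratio. No p-value was computed, since each population has 1 library and cells are not replicates. The members and the 28 gene lists were chosen with earlier results of these data known. Of the lists, 4 symbols were left out because they were absent or named more than 1 gene. Genes named are those of the lists, the 15 largest ratios upward and 10 downward with at least 50 CPM in the higher class, and the 10 largest each way per library pair. Others are said to have been chosen after their values were seen. On simulated counts for the comparison with stromal cells, run on 9812 genes, all 193 changed genes and 0 of 9619 unchanged genes were called. These counts held counting error only, used 1 stromal profile for all libraries and had log2 changes of 1.5 or 2 each way. They check the computation and give no error rate for the calls on the real cells. Alternatives changed the cell limits, the doublet treatment, the stromal cells compared, the scaling and the filter on low genes. Sums and intervals were computed in pandas 2.3.3 and scipy 1.17.1, and Scrublet was run through scanpy 1.11.5. Results of some genes are not reported here.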

Additional observations from a re-analysis of the deposited data

Results flagged for a closer look

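In 3 results the libraries went in opposite directions, and these differences were not tested, as each population has 1 library. The transcription factor list had a log2 ratio of melanoma to stromal cells of 0.18 in the tdTomatoneg eGFP+ and -0.18 in the tdTomatoneg eGFPneg library. The G2 and M phase list was at 0.14 in the tdTomato+ eGFPneg library, was above 0 in the tdTomatoneg eGFPneg library too, and was at -0.54 in the tdTomatoneg eGFP+ library. *Fbln1* was at 0.62 in the tdTomatoneg eGFP+ library, was above 0 in the tdTomato+ eGFPneg library, and was at -0.12 in the tdTomatoneg eGFPneg library. Among barcodes that the comparisons did not use, 130 with over 6000 genes and 33 with over 10% mitochondrial UMIs met the melanoma rule.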

How the results depend on the processing

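No called value reversed under any alternative, but many values moved in size. Over all alternatives, values of single named genes were marked as moved 520 times and as the same 712 times. Values of gene lists moved 235 times and stayed the same 180 times, and correlations across cells 21 and 114 times. Shares and gene counts moved 31 times and stayed the same 94 times, and only these moved ones are given here. Without an upper limit on genes, melanoma cells made up 2.37%, 1.66% and 4.25% of the tdTomatoneg eGFP+, tdTomato+ eGFPneg and tdTomatoneg eGFPneg libraries and 3.12% of all cells, with 37 genes higher in tdTomatoneg eGFPneg than in tdTomatoneg eGFP+ melanoma cells, 49 higher and 246 lower than in tdTomato+ eGFPneg, and 22 higher and 23 lower in tdTomatoneg eGFP+ than in tdTomato+ eGFPneg. With collagens under 0.1%, an alternative chosen after seeing the data, the shares were 1.53% (tdTomatoneg eGFP+), 2.42% (tdTomatoneg eGFPneg) and 1.86% (all), and the counts 43 higher in the first pair, 46 higher and 200 lower in the second and 20 higher in the last. With a mitochondrial limit of 5% the share was 2.37% of all cells and 140 genes were lower in the last pair. Removal of the expected share of doublets gave 22 higher there. The mean over cells gave 119 lower in the first and 78 higher in the last pair. At a mean of at least 50 CPM the 3 pairs had 28, 59 and 16 higher and 6, 119 and 8 lower genes. Against stromal cells, a minimum of 20 CPM left 851 higher and 1279 lower genes, no filter beyond 3 UMIs gave 3009 higher, and thinning to 2000 UMIs gave 1472 lower. Leaving out each library in turn gave 1375 to 1801 higher and 2057 to 2308 lower genes. The causes of these differences were not tested, apart from the fewer or more genes measured under another CPM minimum. No paired analysis was possible because no result comes from a test: the melanoma cells were chosen by genes of the same contrast. Melanoma and stromal cells do pair within a library, and their values are given by library. The 18 melanoma cells of the tdTomato+ eGFP+ library limit what can be said of it.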
